A study of Homo sapiens with 10 samples.

Results

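The genes described here are 60 widely expressed genes spread along the long arm of human chromosome 15, from NIPA2 near the centromere to SNRPA1 near the end of the arm. They were listed in chromosomal order and chosen with the comparison of the guides already known, so the counts and fold changes below describe that choice. No p-value is given for the members as a set. ULK3 was not analysed here. The other 59 were all tested, beside 564 other tested genes placed on chromosome 15 and 17834 tested genes in all. Their RNA was measured in U266, a long-established line of human myeloma, which is a cancer of plasma cells. All cells carried dCas9-VPR, a cutting-dead Cas9 joined to activator domains, and all were kept in puromycin and blasticidin after transduction. The 5 libraries of the EFNB2 guide (A to E) were made from cells given a guide RNA directed at EFNB2 (EFNB2 gRNA, titled gRNA2), the gene of the ligand ephrin-B2 on chromosome 13, and the 5 control libraries (A to E) from cells given a scrambled, non-targeting guide (control gRNA, titled cgRNA). Whether each library was its own culture is not said in the labels, so the spread given here may be technical.

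Genes that sit along one chromosome arm share the number of DNA copies of that arm, while each has its own promoter, RNA half-life and regulators. A change in copy number is known to move many RNAs of an arm by a similar factor. For members of protein complexes it can be asked whether a subunit's RNA follows its chromosome or its partners. A gene whose RNA stays level despite a changed copy number is called dosage-compensated at the RNA level. Protein levels were not analysed here. The long arm of chromosome 15 begins with the imprinted region of the Prader-Willi and Angelman syndromes, next to a stretch (NIPA2, CYFIP1 and TUBGCP5) bounded by repeated sequences. DNA copy number was not analysed here, so neither copy number nor dosage compensation was tested. In bulk RNA, a change in every cell and a change in a share of the cells cannot be told apart.

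The total count per library was 47268072 to 54761361 with the EFNB2 guide and 52142380 to 56513548 with the control guide. EFNB2 itself stood at 1.21 ± 0.198 CPM (counts scaled to 1000000 per library) with the EFNB2 guide and 0.119 ± 0.0509 CPM in control libraries (mean ± SD, 5 each), without overlap. Of 10 plasma cell markers, 4 were called higher and 4 lower, and their summed level was 8543 to 8935 CPM in EFNB2 guide libraries and 8936 to 10112 CPM in control libraries. All 5 B cell, all 5 myeloid and all 3 erythroid markers were below 1 CPM, and epithelial markers summed to 1.78 to 2.45 CPM in EFNB2 guide libraries and 1.74 to 2.44 CPM in control libraries. The 5 T and NK cell markers summed to 26.3 to 29.6 CPM in EFNB2 guide libraries and 22.01 to 25.1 CPM in control libraries, and the 4 fibroblast markers to 25.5 to 29.9 CPM in EFNB2 guide libraries and 19.96 to 27.1 CPM in control libraries, and their part in the results was not tested. NCAM1 made up most of the T and NK cell sum and COL1A1 most of the fibroblast sum, both called higher, while CD8A and COL3A1 were called lower. The A library of each guide stood apart from its group on the second principal component (21.2 for the EFNB2 guide and -25.9 for the control guide), and results are also given without both where that changes them.

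Most of the chromosome 15q genes were moderately higher with the EFNB2 guide. Their median log2 fold change was 0.28, a 1.22-fold level, with quartiles of 0.20 and 0.46, and 55 of 59 were above 0. In the fit over all genes (edgeR's quasi-likelihood test, Benjamini-Hochberg adjusted p under 0.05), 53 were called higher, against a background of 22.8% of all tested genes called higher, and 2 (SMAD3 and IDH2) were called lower, against 22.6% of all tested genes. The lowest EFNB2 guide library was above the highest control library for 52 members, where 15% of all tested genes showed this, and the reverse held for 2 members, where 15.2% of all tested genes did. As the list was chosen with this contrast in view, nothing is read from these counts beyond the description. The 4 members that were not called were TYRO3, SNAP23, SPG11 and IGF1R.

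The other genes of the chromosome lay at the same height. The 564 other tested chromosome 15 genes had a median log2 fold change of 0.31, with 345 called higher and 25 lower. Among the 352 of them whose log2 CPM averaged 1 or more, the median was 0.30. All tested genes had a median of 0.01, and the 11737 genes of other chromosomes at or above that level had a median of -0.02. By whole chromosomes, the median was 0.31 on chromosome 15, and the next was 0.05 on chromosome 16. The members' median of 0.28 lay inside the quartiles of those 352 genes, 0.15 and 0.47.

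Around that common height the members were spread by more than their measurement error. The SD of their log2 fold changes was 0.31, and their median SE was 0.0322. Of the 59, 31 (52.5%) lay within 0.1 of the members' median and 40 (67.8%) within 0.2, while 4 lay within 0.1 of 0. Seen against each gene's own SE, 20 were within 2 SE of the median, 21 were farther above and 18 farther below. For the 58 members whose log2 CPM averaged 1 or more, which leaves out FES, the SD was 0.28, and 51.7% lay within 0.1 of their own median. At the same cut the SD was 0.35 over the 352 other chromosome 15 genes, of which 33.2% lay within 0.1 of their own median. It was 0.32 over the 11737 genes of other chromosomes, of which 43.4% did. These sets were not alike in level or error. The median of the mean log2 CPM was 6.67 for the 58 members, 5.13 for the 352 genes and 5.02 for the 11737. Their median SE was 0.0321, 0.0460 and 0.0416 in the same order. For 3052 genes of other chromosomes in the middle range of the members' levels, the SD was 0.20 around a median of -0.02. That range lies between the quartiles of the members' levels, and no SD of the members within it was taken. The value is therefore not a like comparison with the members' SD.

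**Figure D1:**
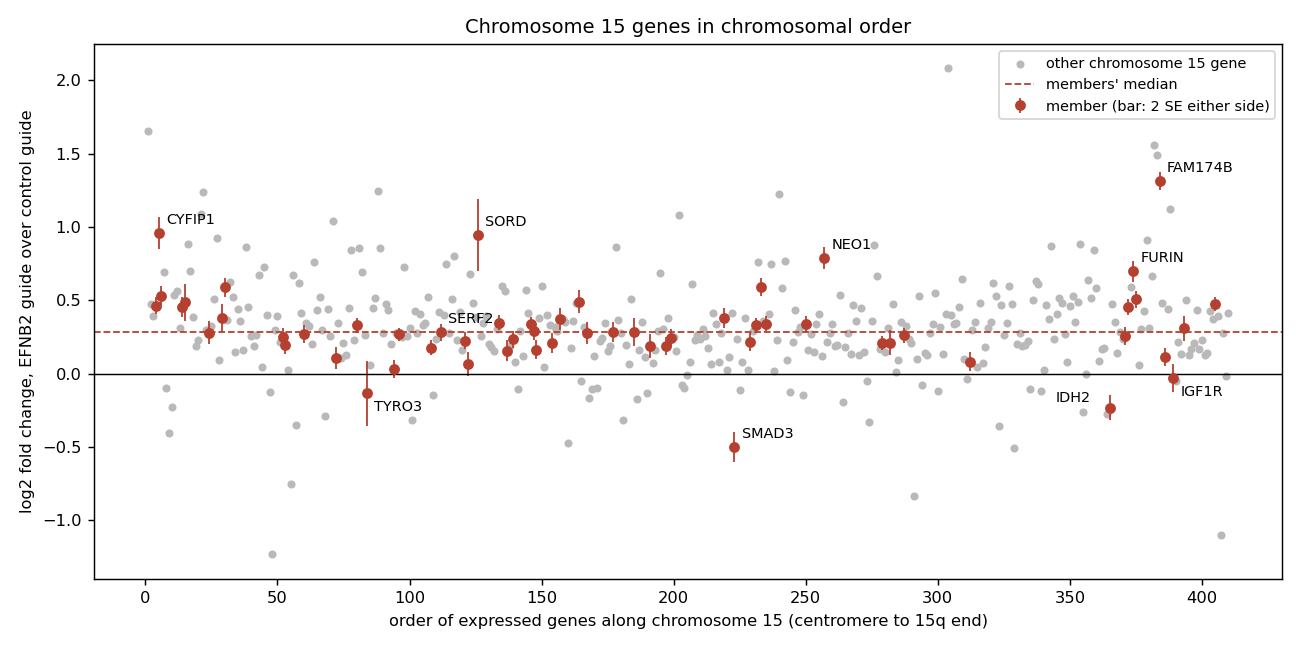
Log2 fold change (EFNB2 guide over control guide, vertical axis) of 410 chromosome 15 genes whose log2 CPM averaged 1 or more, in their order along the chromosome (horizontal axis). Red points are 58 members with bars of 2 SE either side, grey points are other genes, and the dashed line is the members' median of 0.28. FES, which is below that level, is not drawn. Most points lie between 0 and 0.5 along the whole arm, and SMAD3 and IDH2 lie below 0.

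The difference ran the length of the arm. The members span positions 22838666 to 101295248 of chromosome 15 (GRCh38.p14). In 10 Mb windows over the members and the other genes at or above that level, the median log2 fold change lay between 0.24 (60 to 70 Mb, 57 genes) and 0.47 (20 to 30 Mb, 20 genes), and it was 0.26 in the last window (100 to 110 Mb, 14 genes). By consecutive members in chromosomal order, the medians were 0.42, 0.23, 0.28 and 0.30 for the first 4 blocks of 12 and 0.46 for the last 11. The first block held members from NIPA2 to VPS18, and all 12 of them were called higher, where 89.8% of all members were. The third block, from USP8 to TRIP4, was the tightest of the 5, with an SD of 0.09. Neighbouring genes were only weakly alike, with a Spearman rho of 0.18 over 409 neighbouring pairs that share the same libraries, which is given as a description.

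The members' median separated the libraries of the guides. Measured from the control guide mean, the members' median log2 CPM was 0.32, 0.27, 0.26, 0.29 and 0.30 higher in EFNB2 guide libraries A to E, and it stood at -0.08, 0.02, 0.01, 0.04 and 0.01 in control libraries A to E. No EFNB2 guide library came near any control library. The summed level of the members was 7922 ± 120.5 CPM in EFNB2 guide libraries and 6386 ± 195 CPM in control libraries (SD, n = 5 each). Chromosome 15 genes took 4.27 ± 0.0361% of all counts with the EFNB2 guide and 3.50 ± 0.0810% with the control guide (SD, n = 5 each). The control A library was the lowest of its group in the members. The median of the other chromosome 15 genes was also lowest there, 0.03 below the control mean. Chromosome 15 genes, members included, took 3.37% of the counts of control A, against 3.50 to 3.57% in control libraries B to E. Within a guide, the median SD of a member's log2 CPM was 0.0393 with the EFNB2 guide and 0.0624 with the control guide.

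**Figure D2:**
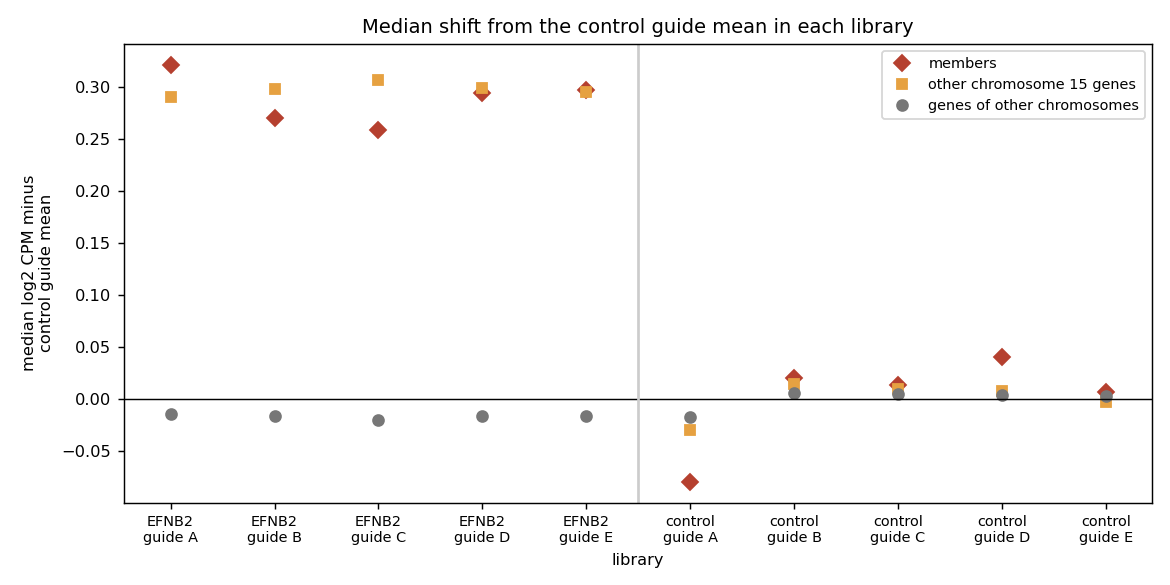
Median difference from the control guide mean in log2 CPM (vertical axis) in each of the 10 libraries (horizontal axis), for the members (red diamonds), other chromosome 15 genes (orange squares) and genes of other chromosomes (grey circles). The members sit between 0.26 and 0.32 in the 5 EFNB2 guide libraries and between -0.08 and 0.04 in the 5 control libraries, and genes of other chromosomes sit near 0 in all 10.

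The members nearest to the common height show what the typical difference looked like in single libraries. SERF2 encodes a small protein that promotes protein aggregation. SERF2 had 254, 244, 238, 249 and 249 CPM in EFNB2 guide libraries A to E, against 194, 203, 215, 202 and 201 CPM in control guide libraries A to E. This gave 247 ± 5.89 CPM in EFNB2 guide libraries, against 203 ± 7.49 CPM in control libraries (mean ± SD, 5 libraries each), with the lowest EFNB2 guide library well above the highest control. VPS13C encodes a bridge-like lipid transfer protein of late endosomes. VPS13C had 124, 132, 139, 127 and 134 CPM in EFNB2 guide libraries A to E, against 98.6, 109, 103, 121 and 106 CPM in control guide libraries A to E. Control library D was the highest control, at 121 CPM, and still below every EFNB2 guide library. MTMR10 encodes a myotubularin-related protein of the phosphoinositide phosphatase family. MTMR10 had 37.1, 42.8, 41.7, 41.4 and 41.8 CPM in EFNB2 guide libraries A to E, against 32.5, 34.99, 33.2, 34.04 and 33.8 CPM in control guide libraries A to E. Its lowest EFNB2 guide value was that of library A, which was still above all 5 controls. RNF111 encodes a ubiquitin ligase of TGF-beta signalling. RNF111 had 46.7, 44.6, 45.1, 46.8 and 47.8 CPM in EFNB2 guide libraries A to E, against 36.97, 39.2, 35.5, 39.6 and 38.2 CPM in control guide libraries A to E. The groups did not overlap, and these 4 genes had log2 fold changes of 0.28, 0.29, 0.28 and 0.29.

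The 6 members with the largest upward departures from the common height were FES, FAM174B, CYFIP1, SORD, NEO1 and FURIN. FES, a cytoplasmic tyrosine kinase best known from myeloid cells, was the farthest. FES had 1.01, 1.14, 1.15, 1.11 and 0.988 CPM in EFNB2 guide libraries A to E, against 0.435, 0.427, 0.305, 0.349 and 0.474 CPM in control guide libraries A to E. Its level was 1.08 ± 0.0749 CPM in EFNB2 guide libraries, against 0.398 ± 0.0691 CPM in control libraries (mean ± SD, 5 libraries each), a 2.70-fold difference (log2 fold change 1.44, SE 0.16) in a gene of low level. All 5 EFNB2 guide libraries exceeded all 5 controls. On the log2(value + 1) scale of the deposited signal, which understates low genes, its log2 fold change was 0.56. FES lies between FURIN and MAN2A2, with 1047 and 6606 bases between the gene spans, and both of these were also above the median.

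FURIN encodes the proprotein convertase that cleaves precursor proteins in the Golgi and at the cell surface. FURIN had 107, 107, 105, 106 and 103 CPM in EFNB2 guide libraries A to E, against 59.7, 63.5, 69.9, 66.95 and 65.3 CPM in control guide libraries A to E. Levels were 106 ± 1.76 CPM in EFNB2 guide libraries, against 65.1 ± 3.82 CPM in control libraries (mean ± SD, 5 libraries each), a 1.62-fold difference (log2 fold change 0.70, SE 0.04). MAN2A2, the Golgi mannosidase on the other side of FES, stood at 197 ± 4.83 CPM in EFNB2 guide libraries, against 138 ± 5.91 CPM in control libraries (mean ± SD, 5 libraries each), at a log2 fold change 0.51, SE 0.03. Neighbours here and below are the nearest genes whose log2 CPM averaged 1 or more, so other tested genes may lie between. Past MAN2A2, HDDC3 had a log2 fold change of 0.06 and UNC45A, just beyond it, 0.31, while BLM, before FURIN, had 0.59.

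FAM174B, which encodes a little-studied membrane protein, had the second largest departure and was measured precisely. FAM174B had 179, 184, 176, 187 and 185 CPM in EFNB2 guide libraries A to E, against 70.9, 70.6, 77.6, 73.9 and 73.6 CPM in control guide libraries A to E. Levels were 182 ± 4.40 CPM in EFNB2 guide libraries, against 73.3 ± 2.85 CPM in control libraries (mean ± SD, 5 libraries each), a 2.49-fold difference (log2 fold change 1.31, SE 0.03). The values within each guide were close together and far from the other guide. The nearest such genes below it on the chromosome, LINC00930 and AC091544.4, had log2 fold changes of 1.56 and 1.49. CHD2, a chromatin remodeller 244549 bases above it, had only 0.11.

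CYFIP1 encodes a subunit of the WAVE regulatory complex, which turns on branched actin assembly, and a partner of the translation repressor FMRP. CYFIP1 had 37.7, 34.3, 33.1, 32.7 and 35.3 CPM in EFNB2 guide libraries A to E, against 15.3, 18.4, 17.9, 18.9 and 18.3 CPM in control guide libraries A to E. Levels were 34.6 ± 1.99 CPM in EFNB2 guide libraries, against 17.8 ± 1.43 CPM in control libraries (mean ± SD, 5 libraries each), a 1.95-fold difference (log2 fold change 0.96, SE 0.05). Its neighbours were lower on the same scale, at 0.46 for NIPA2, 0.39 for NIPA1 and 0.53 for TUBGCP5. CYFIP1 and NIPA2 share 1333 bases of exon on opposite strands, and the strand setting of the counting is not given in the sources used here. NIPA2 stood at 138 ± 2.31 CPM in EFNB2 guide libraries, against 100.1 ± 4.35 CPM in control libraries (mean ± SD, 5 libraries each). Per kilobase of exon it was the more abundant of the pair, at 39.4 CPM per kb against 3.32 CPM per kb for CYFIP1 in EFNB2 guide libraries, and 28.6 CPM per kb against 1.71 CPM per kb in control libraries.

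NEO1 encodes neogenin, a receptor for netrins and repulsive guidance molecules. NEO1 had 193, 191, 181, 186 and 187 CPM in EFNB2 guide libraries A to E, against 98.3, 108, 108, 116 and 112 CPM in control guide libraries A to E. Levels were 188 ± 4.47 CPM in EFNB2 guide libraries, against 108 ± 6.49 CPM in control libraries (mean ± SD, 5 libraries each), a 1.73-fold difference (log2 fold change 0.79, SE 0.04). The nearest such coding genes, ADPGK and NPTN, stood at 0.41 and 0.22. SORD encodes sorbitol dehydrogenase of the polyol pathway and was, per kilobase of exon, among the least abundant members. SORD had 3.54, 2.67, 2.61, 2.60 and 2.63 CPM in EFNB2 guide libraries A to E, against 1.21, 1.42, 1.40, 1.74 and 1.53 CPM in control guide libraries A to E. EFNB2 guide library A was far above the other 4, which lay between 2.60 and 2.67 CPM, and all 5 were above every control. The log2 fold change was 0.95 (SE 0.12), and 0.61 on the log2(value + 1) scale of the deposited signal. SORD has a near-identical pseudogene, SORD2P, listed at 0.485 CPM in EFNB2 guide libraries and 0.261 CPM in control libraries, so its counts are uncertain where reads fit both.

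**Figure D3:**
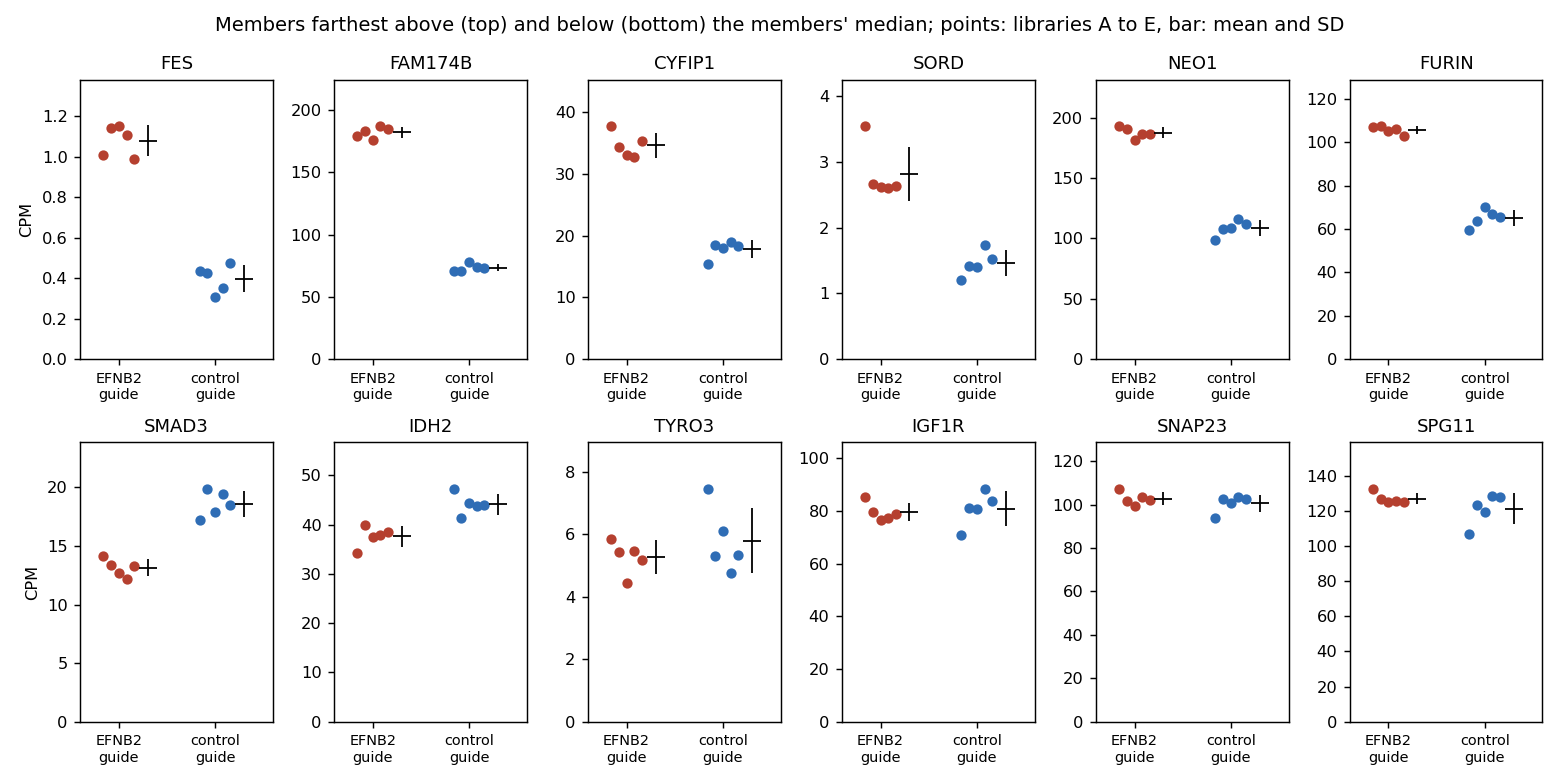
CPM (vertical axes, from 0) in the 5 EFNB2 guide libraries (red) and 5 control guide libraries (blue) for the 6 members farthest above (top row) and the 6 farthest below (bottom row) the members' median. Points are libraries A to E from left to right and the black marks are mean and SD. The groups are apart for the 6 genes of the top row and for SMAD3 and IDH2, and overlap for TYRO3, IGF1R, SNAP23 and SPG11.

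At the other end, SMAD3 and IDH2 were lower with the EFNB2 guide. SMAD3 encodes the transcription factor that carries TGF-beta and activin signals to the nucleus. SMAD3 had 14.1, 13.4, 12.7, 12.2 and 13.3 CPM in EFNB2 guide libraries A to E, against 17.2, 19.9, 17.9, 19.4 and 18.5 CPM in control guide libraries A to E. Levels were 13.1 ± 0.729 CPM in EFNB2 guide libraries, against 18.6 ± 1.09 CPM in control libraries (mean ± SD, 5 libraries each), a 0.708-fold level (log2 fold change -0.50, SE 0.05), and no EFNB2 guide library reached the lowest control. The nearest genes on either side with a log2 CPM of 1 or more did not share this. AAGAB, 5498 bases above SMAD3, had a log2 fold change of 0.24, and ZWILCH, 515472 bases below it, 0.41. Past AAGAB, IQCH stood at -0.11 (SE 0.08) and was not called, and RPL4, past ZWILCH, stood at 0.11. IDH2 encodes the mitochondrial isocitrate dehydrogenase that makes NADPH. IDH2 had 34.2, 39.97, 37.6, 37.95 and 38.5 CPM in EFNB2 guide libraries A to E, against 47.2, 41.3, 44.4, 43.9 and 43.9 CPM in control guide libraries A to E. Levels were 37.6 ± 2.12 CPM in EFNB2 guide libraries, against 44.1 ± 2.10 CPM in control libraries (mean ± SD, 5 libraries each), a 0.852-fold level (log2 fold change -0.23, SE 0.04). The groups came close, since EFNB2 guide library B had 39.97 CPM and control library B 41.3 CPM. ZNF710 beside it stood at 0.18 and its antisense transcript ZNF710-AS1 at -0.28. On the other side of IDH2, SEMA4B and CIB1 stood at 0.48 and 0.35.

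TYRO3, SNAP23, SPG11 and IGF1R were not called in either direction, and the libraries of the guides overlapped for all 4. TYRO3 encodes a TAM family receptor tyrosine kinase that binds GAS6 and protein S. TYRO3 had 5.86, 5.43, 4.43, 5.47 and 5.16 CPM in EFNB2 guide libraries A to E, against 7.45, 5.29, 6.11, 4.75 and 5.34 CPM in control guide libraries A to E. The groups overlapped widely, and the log2 fold change of -0.13 was little larger than its SE of 0.11. IGF1R encodes the receptor for insulin-like growth factors, which are growth factors of myeloma cells. IGF1R had 85.1, 79.5, 76.5, 77.4 and 78.8 CPM in EFNB2 guide libraries A to E, against 70.7, 81.1, 80.6, 88.3 and 83.8 CPM in control guide libraries A to E. Control libraries lay on both sides of the EFNB2 guide libraries, and the log2 fold change was -0.03 (SE 0.05). Without both A libraries IGF1R was called lower with the EFNB2 guide by the same fit and threshold, at a log2 fold change of -0.10.

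SNAP23 encodes a SNARE protein of fusion at the cell surface. SNAP23 had 107, 101, 99.4, 104 and 102 CPM in EFNB2 guide libraries A to E, against 93.7, 102, 101, 103 and 103 CPM in control guide libraries A to E. Only control library A was clearly low, and the log2 fold change was 0.03 (SE 0.03). The genes around it were higher, with 0.20 for ZNF106, 0.28 for LRRC57 and 0.27 for HAUS2. SPG11 encodes spatacsin, which acts in the recycling of lysosomes. SPG11 had 133, 127, 125, 126 and 125 CPM in EFNB2 guide libraries A to E, against 107, 124, 119.7, 129 and 128 CPM in control guide libraries A to E. Control library A was again the lowest of its group, and the log2 fold change was 0.07 (SE 0.04). SPG11 overlaps EIF3J (0.23) at their ends by 187 bases of exon on opposite strands, and PATL2 on its other side stood at 0.68.

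The promoters of members at the 2 ends of the range are printed to show what stands before genes that share a chromosome and differ in response. They are the 250 bases before the gene's start, from RefSeq's GRCh38.p14 table, 5′ to 3′ on the gene's own strand, with matches to the GC box (GGGCGG or CCGCCC on the printed strand) in capitals. FAM174B (chr15:92655776-92656025, minus strand) and CYFIP1 (chr15:22980899-22981148, minus strand) were far above the members' median. SMAD3 (chr15:67065352-67065601, plus strand) and TYRO3 (chr15:41558962-41559211, plus strand) were far below it. FES and IDH2 are not printed because the table's start for them lies inside the gene span.
FAM174B: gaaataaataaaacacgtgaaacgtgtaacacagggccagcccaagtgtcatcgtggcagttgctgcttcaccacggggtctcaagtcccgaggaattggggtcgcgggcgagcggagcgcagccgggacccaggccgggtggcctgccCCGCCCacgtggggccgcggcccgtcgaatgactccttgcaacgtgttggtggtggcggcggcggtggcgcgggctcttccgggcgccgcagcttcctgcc
CYFIP1: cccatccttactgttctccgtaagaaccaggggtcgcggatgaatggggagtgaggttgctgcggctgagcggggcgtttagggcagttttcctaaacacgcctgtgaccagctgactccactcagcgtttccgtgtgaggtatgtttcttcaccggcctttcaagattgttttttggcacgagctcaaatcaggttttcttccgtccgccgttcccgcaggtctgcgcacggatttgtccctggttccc
SMAD3: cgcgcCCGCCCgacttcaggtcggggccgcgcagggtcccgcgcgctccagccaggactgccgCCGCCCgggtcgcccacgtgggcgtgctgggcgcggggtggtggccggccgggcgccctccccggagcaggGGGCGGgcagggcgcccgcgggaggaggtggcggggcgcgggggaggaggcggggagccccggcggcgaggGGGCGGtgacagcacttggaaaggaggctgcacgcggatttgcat
TYRO3: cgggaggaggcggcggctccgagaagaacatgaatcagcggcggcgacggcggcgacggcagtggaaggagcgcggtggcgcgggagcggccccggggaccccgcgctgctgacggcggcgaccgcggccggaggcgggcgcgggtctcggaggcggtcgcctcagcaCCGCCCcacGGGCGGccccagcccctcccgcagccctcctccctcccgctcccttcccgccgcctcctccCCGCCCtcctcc

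These 4 windows differ in composition, which is given as a description. The SMAD3 window held 4 GC boxes and 80.8% G and C, and the TYRO3 window held 3 GC boxes and 80% G and C. FAM174B had 1 GC box and 67.2% G and C, and CYFIP1 had none and 55.6%. Of the 59 members, 54 matched the table, and for 43 of them the window ended at the first base of the RefSeq gene span. The members' median G and C share was 67.2%, against 64.4% for 10989 tested genes and 58% for all 27305 promoters in the table. A GC box was in 39 of 54 member windows (72.2%), in 65% of the windows of tested genes and in 42.3% of all windows. A CCAAT box (CCAAT on either strand) was in 35.2% of member windows, 35.7% of the windows of tested genes and 33% of all, and a TATA box (TATAAA on either strand) in 3.70% of member windows, 5.56% of the windows of tested genes and 11.1% of all. Within the members, the G and C share and the log2 fold change had a Spearman rho of -0.03 (n = 54, across genes of the same libraries), so the share did not order them.

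The members were also grouped by role, and numbers in parentheses after a gene are its log2 fold change. Over all 59 members 89.8% were called higher, against 22.8% of all tested genes. A small group with all or most members called is therefore near the members' own share, and nothing about the role is read from such counts. Enzymes of the lysosome, of glycans and of the secretory pathway had the highest median of the role groups, at 0.50, with all 6 called higher. Beside FURIN and MAN2A2 these were CLN6 (0.59), an endoplasmic reticulum protein needed for lysosomal enzymes to leave it, PIGB (0.49), a mannosyltransferase of the GPI anchor, HEXA (0.34), the alpha subunit of beta-hexosaminidase A, and SPPL2A, an intramembrane protease. SPPL2A had 72.4, 74.3, 73.5, 75.2 and 74.9 CPM in EFNB2 guide libraries A to E, against 60.6, 66.7, 68.04, 68.8 and 66.1 CPM in control guide libraries A to E. This was the smallest difference of the group, at 0.17, and the groups still did not overlap.

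Genes of the cytoskeleton and centrosome had a median of 0.38, with all 5 called higher. Below CYFIP1 came TUBGCP5 (0.53), of the gamma-tubulin ring complex, MYO5A (0.38), a myosin that carries vesicles along actin, and HAUS2 (0.27), of the augmin complex, which branches spindle microtubules. IQGAP1, a large scaffold of actin and RAS signalling, had the highest CPM of the members, on a scale that also grows with transcript length. IQGAP1 had 560.2, 543, 532, 526 and 537 CPM in EFNB2 guide libraries A to E, against 433, 455, 428, 474 and 464 CPM in control guide libraries A to E. Its log2 fold change of 0.26 put it close to the median, with no overlap between the guides.

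The 12 genes of chromatin, transcription and DNA repair were the largest group and one of the more even ones. All 12 were called higher, with a median of 0.27 and an SD of 0.10. CRTC3, a coactivator of CREB, was at the top. CRTC3 had 44.9, 45.7, 46.1, 45.9 and 47.8 CPM in EFNB2 guide libraries A to E, against 32.8, 33.5, 33.6, 33.9 and 33.8 CPM in control guide libraries A to E. Its groups were far apart for so small a spread, with 46.1 ± 1.08 CPM in EFNB2 guide libraries, against 33.5 ± 0.428 CPM in control libraries (mean ± SD, 5 libraries each). CHD2 was at the bottom. CHD2 had 123, 129, 133, 128 and 132 CPM in EFNB2 guide libraries A to E, against 113, 123, 120.2, 124 and 117 CPM in control guide libraries A to E. The highest control, library D with 124 CPM, was above the lowest EFNB2 guide library, A with 123 CPM, which makes CHD2 the only member called higher whose groups overlapped. ANP32A, a histone-binding inhibitor of phosphatases, and EID1, an inhibitor of the acetyltransferase EP300, were among the members of highest CPM. ANP32A had 438, 420.3, 418, 430.4 and 419 CPM in EFNB2 guide libraries A to E, against 323, 344, 342, 344 and 326 CPM in control guide libraries A to E. EID1 had 420.4, 403, 393, 407 and 393 CPM in EFNB2 guide libraries A to E, against 328, 368, 373, 374 and 364 CPM in control guide libraries A to E. Both were without overlap, and control library A was the lowest for each. Between these lay PIAS1 (0.33), a SUMO ligase, RTF1 (0.33), of the PAF1 elongation complex, the transcription factors MEF2A (0.31) and RFX7 (0.28), the silencing factor BAHD1 (0.27), TRIP4 (0.24) of the ASC-1 complex, the corepressor SIN3A (0.21) and the repair factor TP53BP1 (0.18).

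The 6 genes of ubiquitin and protein turnover had a median of 0.31, all called higher. HERC2, a giant ubiquitin ligase, was at the top. HERC2 had 68.4, 65.9, 69.04, 64.5 and 66.5 CPM in EFNB2 guide libraries A to E, against 38.2, 47.7, 48.7, 53.6 and 50.5 CPM in control guide libraries A to E. Control library A was much lower than the other controls. HERC2 has several copies in the same region that share its sequence, among them HERC2P2 at 53.5 CPM in EFNB2 guide libraries and 38.5 CPM in control libraries, so its counts are uncertain. USP3, which removes ubiquitin from histones, was at the bottom with 0.19. USP3 had 60.8, 53.9, 55.3, 54.7 and 55.2 CPM in EFNB2 guide libraries A to E, against 44.4, 49.8, 50.2, 50.7 and 50.6 CPM in control guide libraries A to E. Both A libraries stood apart in opposite directions, the EFNB2 guide one high and the control one low. UBE3A (0.45), the ligase lost in Angelman syndrome, USP8 (0.34), which acts on endosomal receptors, RNF111 and COPS2 (0.23), of the COP9 signalosome, lay between.

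The imprinted region, from a list of 8 genes that includes UBE3A, was described beside it. Of the 4 tested genes of that list, 3 were called higher and 0 lower in the same fit (edgeR), with SNRPN, at 1.71 CPM in EFNB2 guide libraries and 1.55 CPM in control libraries, not called. Of the 564 other tested chromosome 15 genes 61.2% were called higher, and of all tested genes 22.8%. NDN averaged 60.9 CPM in EFNB2 guide libraries and 41.1 CPM in control libraries, MKRN3 averaged 19.3 CPM in EFNB2 guide libraries and 13.3 CPM in control libraries, and UBE3A averaged 167 CPM in EFNB2 guide libraries and 122 CPM in control libraries. NDN and MKRN3 are active on the paternal chromosome only, in human tissues, while UBE3A is paternally silenced in neurons and active from both copies elsewhere. Their log2 fold changes were 0.57 for NDN, 0.54 for MKRN3 and 0.45 for UBE3A. MAGEL2, ATP10A, NPAP1 and SNURF were at or near 0 in both groups.

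Translation and endoplasmic reticulum genes had a median of 0.24, with all 4 called higher. EMC7, of the membrane protein insertion complex, was apart from the other 3. EMC7 had 57.03, 55.01, 55.2, 54.7 and 54.9 CPM in EFNB2 guide libraries A to E, against 33.95, 37.6, 37.9, 37.5 and 36.9 CPM in control guide libraries A to E. Levels were 55.4 ± 0.947 CPM in EFNB2 guide libraries, against 36.8 ± 1.61 CPM in control libraries (mean ± SD, 5 libraries each), a 1.51-fold difference. SRP14, which binds the Alu part of the signal recognition particle, was at the bottom. SRP14 had 316, 296, 292, 303 and 295 CPM in EFNB2 guide libraries A to E, against 247, 268, 273, 264 and 259 CPM in control guide libraries A to E. The groups were apart, but the log2 fold change was only 0.19. EIF2AK4 (0.25), the kinase that senses missing amino acids, and EIF3J (0.23), a loosely bound subunit of initiation factor eIF3, were close to it.

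SNRPA1 and IMP3 make up the RNA group. SNRPA1 encodes a protein of the spliceosomal U2 particle. SNRPA1 had 139, 139, 139.8, 142 and 139.6 CPM in EFNB2 guide libraries A to E, against 104, 96.6, 103, 98.8 and 99.8 CPM in control guide libraries A to E. IMP3 encodes a protein of the U3 particle that processes ribosomal RNA. IMP3 had 140.2, 128, 126, 128 and 128 CPM in EFNB2 guide libraries A to E, against 100.5, 111, 119.5, 115 and 116 CPM in control guide libraries A to E. Both were without overlap, and their log2 fold changes were 0.48 (SE 0.02) and 0.21 (SE 0.04).

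The 5 metabolic enzymes were divided. SORD was far above, DUT (0.35), which removes dUTP before DNA synthesis, and ETFA (0.26), of the mitochondrial electron transfer flavoprotein, were near the median, FAH (0.08), the last enzyme of tyrosine breakdown, was near 0, and IDH2 was lower. The call of FAH was lost in 11 of 19 alternative settings, among them the fit without both A libraries. The kinases and receptors ranged from FES to SMAD3. MAP2K1 (0.38), the MEK1 kinase, was above the median. MAP2K5 (0.22), MAPK6 (0.21), the atypical kinase ERK3, and CSNK1G1 (0.19), a casein kinase at membranes, were called higher and stood a little below it. Of the 9 in that group, 6 were called higher and 1 lower.

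Membrane traffic and autophagy had the lowest median, 0.09, with 2 of 4 called higher. VPS13C was at the members' median and VPS18 (0.11), a core subunit of the HOPS and CORVET tethers, was below it, next to SPG11 and SNAP23. The call of VPS18 was lost in 3 of 19 alternative settings, among them the fit without both A libraries. The last group held ion transport and other functions, with a median of 0.34 and all 6 called higher. Beside FAM174B, SERF2 and MTMR10 it held the magnesium transporter NIPA2 (0.46), the apoptosis inhibitor AVEN (0.38) and TRPM7 (0.29), a channel fused to a kinase.

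**Figure D4:**
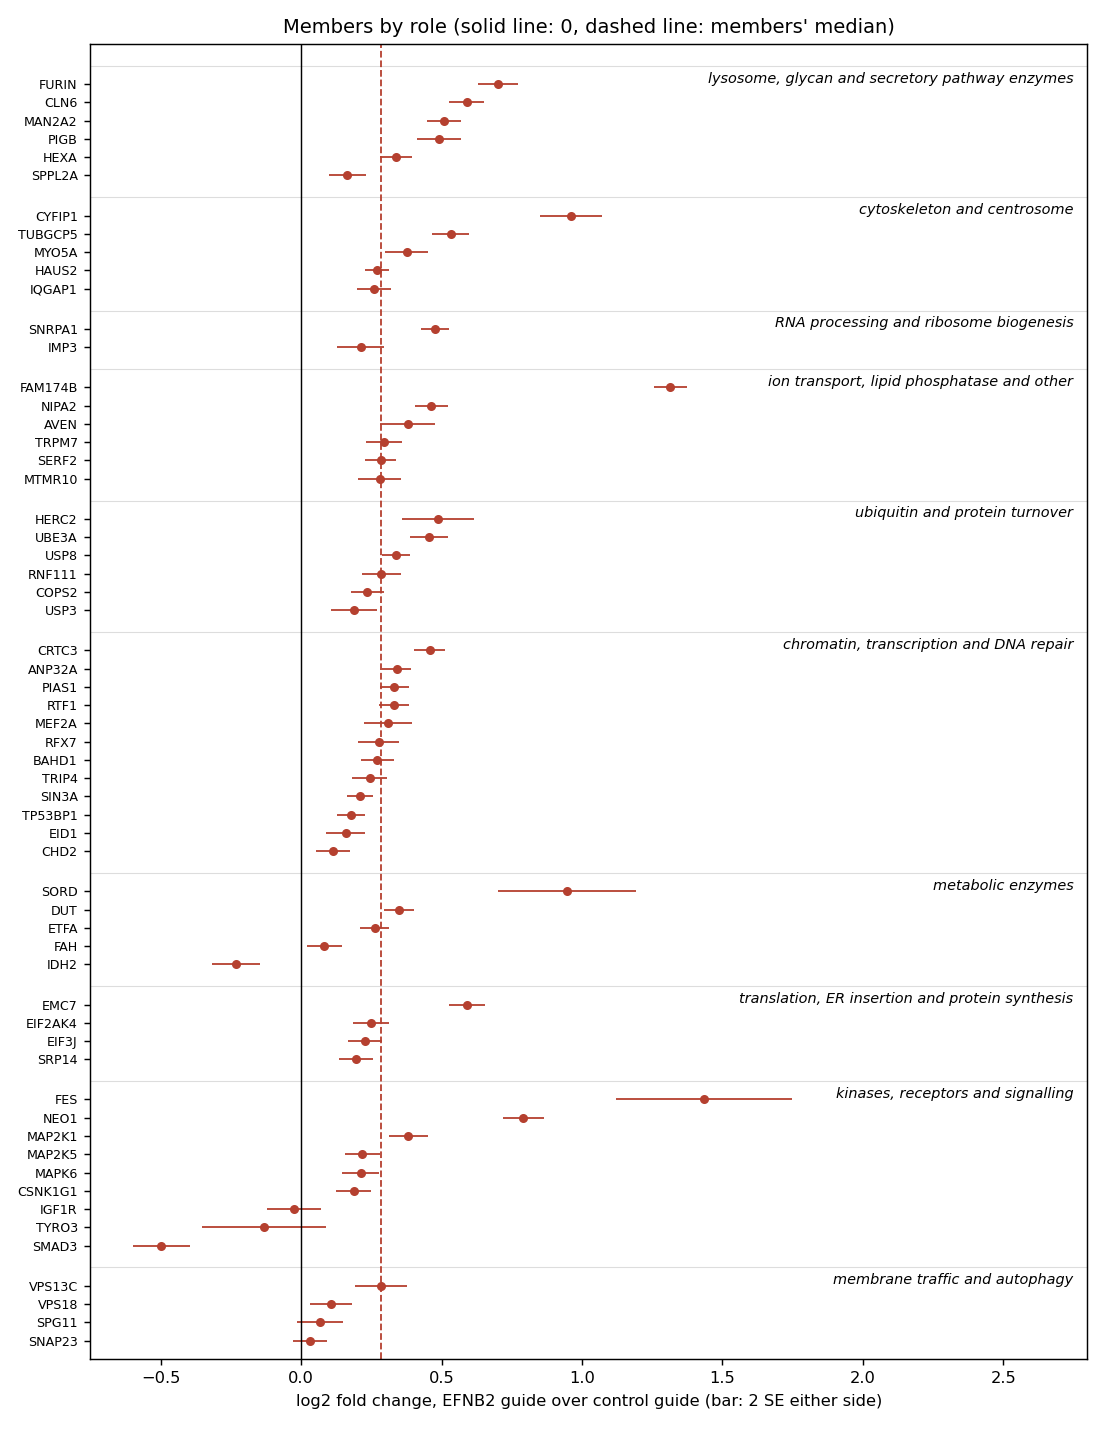
Log2 fold change (horizontal axis, EFNB2 guide over control guide) of 59 members, grouped by role (labels at right) and ordered within each group. Points are estimates and bars are 2 SE either side, the solid line is 0 and the dashed line the members' median of 0.28. The 12 chromatin genes lie between 0.11 and 0.46, and the kinases and receptors range from -0.50 to 1.44.

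Complex partners encoded on other chromosomes lay around 0. For 20 members a list of 104 partners in the same complex or pathway was set beside them, of which 97 tested genes lie on other chromosomes, 5 on chromosome 15 and 2 (WASF3 and TGFBR2) were not tested. The 97 had a median log2 fold change of -0.03, with quartiles of -0.10 and 0.07, and 20 (20.6%) were called higher and 33 (34%) lower. Among 3052 genes of other chromosomes in the middle range of the members' levels, 23.1% were called higher and 34.1% lower, so the partners' shares were near that background. The 5 on chromosome 15 had a median of 0.34 and all 5 were called higher, at 0.52 for TUBGCP4, 0.52 for EMC4, 0.33 for LEO1, 0.34 for WDR61 and 0.28 for VPS39. Of the 352 other chromosome 15 genes whose log2 CPM averaged 1 or more, 78.1% were called higher. In 19 of 20 complexes the member lay above the median of its partners on other chromosomes, the exception being SMAD3, and in 14 it lay above every one of them. Fold changes of members and partners come from the same libraries. The member minus the median of its partners had a median of 0.33 and ranged from -0.47 to 1.09. The members were chosen with this contrast known, and 55 of 59 were above 0. The 3052 genes of other chromosomes had a median of -0.02. Most members would therefore lie above most genes of other chromosomes, and nothing is read from these counts about complexes.

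Some complexes are given subunit by subunit, with all values as log2 fold changes. EIF3J stood at 0.23, while the 12 other subunits of eIF3 had a median of -0.13 and ranged from -0.23 to -0.01, with 8 called lower. EMC7 stood at 0.59 and EMC4, also on chromosome 15, at 0.52, while the 8 subunits encoded elsewhere had a median of 0.00 and a highest value of 0.20. COPS2 stood at 0.23, against a median of -0.03 over 8 other signalosome subunits. In the PAF1 complex, RTF1, LEO1 and WDR61 on chromosome 15 lay at 0.33 to 0.34, and PAF1, CTR9 and CDC73 on other chromosomes at 0.08, -0.19 and -0.11. TUBGCP5 (0.53) and TUBGCP4 (0.52) were likewise above TUBGCP2, TUBGCP3, TUBGCP6 and TUBG1, whose highest value was 0.14. In other complexes a partner exceeded the member. HAUS2 stood at 0.27, with HAUS7 at 0.66 and HAUS8 at 0.30 among 7 partners that had a median of 0.09. SIN3A stood at 0.21, with SUDS3 at 0.29 among 7 partners that had a median of 0.02.

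SNRPA1 and ETFA, each with a single listed partner, were also above it. SNRPA1 had a log2 fold change of 0.48 and SNRPB2 -0.10, and ETFA had 0.26 and ETFB -0.07. CYFIP1 differed most from its partners. The 7 other tested genes of the WAVE complex had a median of -0.13, with 5 called lower, and NCKAP1L, the subunit typical of blood cells, was lowest at -0.87. CYFIP2, the alternative to CYFIP1 in that complex and named after its values were seen, stood at 246.8 ± 4.62 CPM in EFNB2 guide libraries and 294.2 ± 13.2 CPM in control libraries (mean ± SD, 5 libraries each), or -0.25 as a log2 fold change. In TGF-beta signalling, SMAD3 was lower and SMAD2, at -0.10, was also called lower, and SMAD4 and the receptor TGFBR1, at 0.01 and -0.03, were not called.

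**Figure D5:**
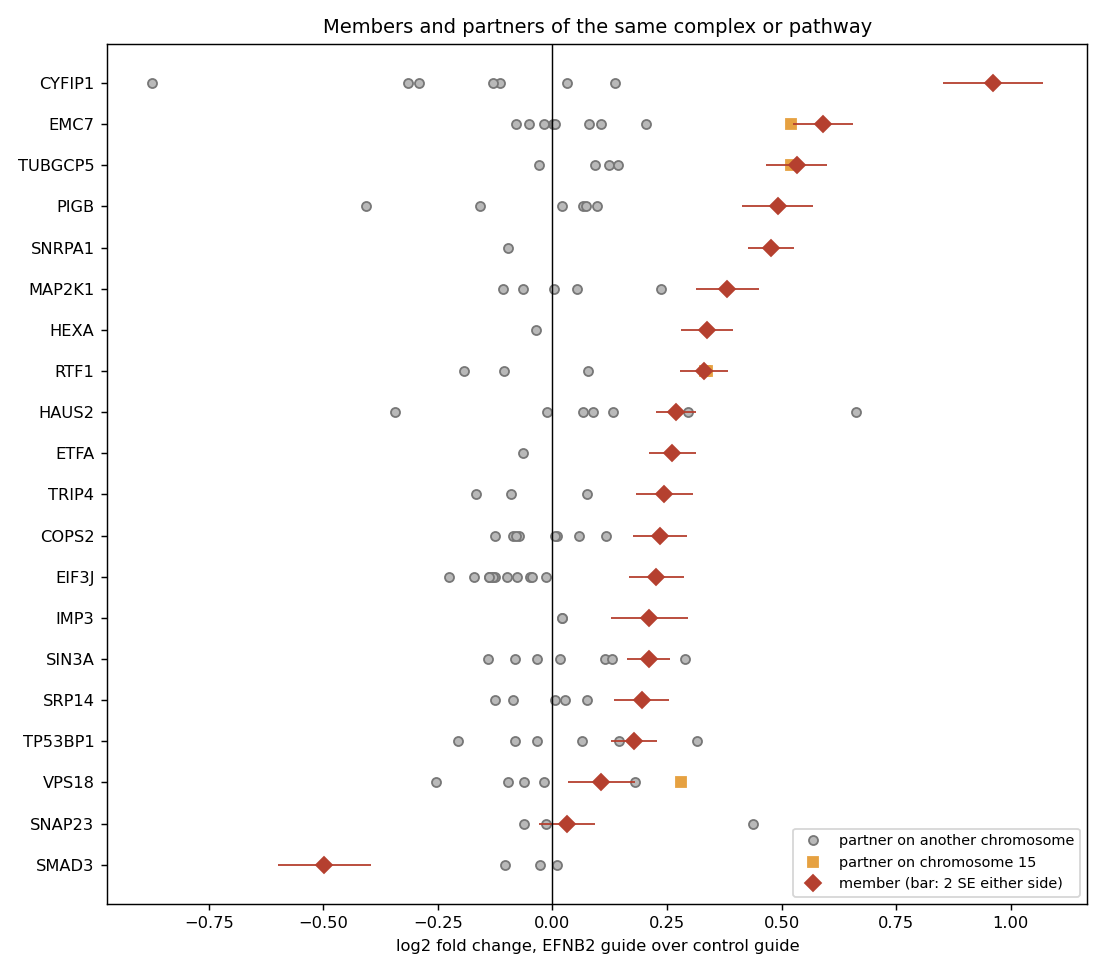
Log2 fold change (horizontal axis, EFNB2 guide over control guide) of 20 members (red diamonds, bars of 2 SE either side) and of their partners in the same complex or pathway on other chromosomes (grey circles) and on chromosome 15 (orange squares). In 19 of 20 rows the red diamond is right of the middle of the grey circles, and the 5 orange squares lie between 0.28 and 0.52.

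By rank, level and length did not order the members' log2 fold changes. Per kilobase of exon, EID1 was highest, at 176 CPM per kb in EFNB2 guide libraries and 157 CPM per kb in control libraries, followed by SRP14 at 150 CPM per kb in EFNB2 guide libraries and 131 CPM per kb in control libraries. FES was lowest, at 0.255 CPM per kb in EFNB2 guide libraries and 0.0939 CPM per kb in control libraries, and TYRO3 and SMAD3 were also near the bottom. Across the 59 members, which share the same libraries, the log2 fold change had a Spearman rho of -0.08 with mean log2 CPM, -0.10 with exon length and -0.02 with position. Pearson r was -0.28, -0.12 and 0.05 in the same order. The size of a member's departure from the median, regardless of sign, had a rho of -0.34 and a Pearson r of -0.60 with mean log2 CPM. The far departures thus included several of the less abundant members. Exon sharing on opposite strands touched other members as well, among them TP53BP1 with TUBGCP4 (3732 bases), PIAS1 with AC107871.1 (2933 bases) and MTMR10 with FAN1 (1507 bases), and reads of such pairs cannot be told apart unless strand was used in counting.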

How the data were processed

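Libraries of U266 cells, 5 with the EFNB2 guide and 5 with the control guide, were assigned to groups by the sample labels. They were strand-specific, poly(A)-selected and sequenced as pairs, per the labels' protocols. GRCh38, STAR 2.27a, Partek and DESeq2 appear in the submitters' processing notes with no roles. For counting, neither the annotation nor the strand setting is given in the sources used here. Raw counts of reads per gene, as the authors deposited them, are the input for all main values, and the normalized signal per gene that the authors also deposited was only an alternative.

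From 60574 genes, filterByExpr of edgeR 4.0.16 (R 4.3.3) kept 17834. After TMM scaling, a model with guide alone was fitted with glmQLFit and tested with glmQLFTest, and p-values were adjusted by Benjamini-Hochberg over all 17834 genes (threshold 0.05). SE were taken as the size of the log2 fold change divided by the root of F. CPM use TMM-scaled totals, and the prior count of log2 CPM was 2. The 3 rows named only by a number, at most 7e-05% of counts, were left out. With totals of 47268072 or more, counting error is small except for the least abundant members. Positions came from RefSeq (GRCh38.p14) by symbol, and from GENCODE 29 for symbols that RefSeq lacked. Symbols in neither were looked up among RefSeq synonyms. Promoters came from RefSeq, and exon lengths and strands from GENCODE 29.

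The members, role groups, partners and lists were chosen with earlier results of these data known. Values in every library are given for the 6 members farthest above and below the members' median, the 4 nearest to it, the 3 of highest and lowest CPM, and the top and bottom of each role group. Alternatives were DESeq2 1.42.0, RLE scaling, library totals, TMM without chromosome 15 genes, 2 other filters, a block for the replicate letter, the deposited signal as log2(value + 1) with limma 3.58.1, and dropping each library. Dropping both A libraries was added after seeing the data. The steps were tested on simulated data.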

Additional observations from a re-analysis of the deposited data

Results flagged for a closer look

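In 124 groups of 5 libraries examined, 17 values stood apart from the other 4 by Dixon's critical value of 0.71, where chance gives about 6.2. Of these, 8 were in the EFNB2 guide A library, 8 in the control A library and 1 in EFNB2 guide library D. What sets the A libraries apart was not tested. The groups were measured in the same libraries, so their flags are not independent, and the excess over 6.2 was not tested.

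In the EFNB2 guide A library, SORD stood at 3.54 CPM against 2.60 to 2.67 CPM in the other 4, USP3 at 60.8 against 53.9 to 55.3 CPM, and IMP3 at 140 against 126 to 128 CPM. MYO5A stood at 298 against 277 to 282 CPM, SPG11 at 133 against 125 to 127 CPM, and EMC7 at 57 against 54.7 to 55.2 CPM. MTMR10 was low there, at 37.1 against 41.4 to 42.8 CPM. Chromosome 15 genes took 4.33% of its counts, against 4.24 to 4.26% in the other 4. In EFNB2 guide library D, HAUS2 stood at 138 CPM, against 133 to 134 CPM in the others.

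All 8 values of the control A library were low. UBE3A stood at 110 CPM against 124 to 126 CPM in the other 4 controls, EID1 at 328 against 364 to 374 CPM, COPS2 at 96.3 against 105 to 106 CPM, and SNAP23 at 93.7 against 101 to 103 CPM. CYFIP1 stood at 15.3 against 17.9 to 18.9 CPM, EMC7 at 33.9 against 36.9 to 37.9 CPM, and USP3 at 44.4 against 49.8 to 50.7 CPM. The summed level of the members was 6050 CPM there, against 6430 to 6560 CPM in the other 4 controls. Without both A libraries the members' median log2 fold change was 0.26, against 0.28 with all 10.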

How the results depend on the processing

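Over 19 alternatives, no member changed direction while called and the members' median log2 fold change, 0.28, stayed between 0.25 and 0.30. The SD of the members' log2 fold changes, 0.31, was 0.26 on the deposited signal and 0.28 with a filter of 1 CPM in 5 libraries. The median of all tested genes, 0.01, was 0.06 with no filter. Leaving out each library in turn gave a median of 0.27 to 0.30, 52 to 53 members called higher and 2 called lower, with 7261 to 9130 genes called in all against 8098. The median of the partners on other chromosomes, -0.03, was -0.011 with library totals alone and -0.048 on the deposited signal, and -0.034 to -0.015 with each library left out. The cause was not tested. FAH lost its call in 11 settings (adjusted p 0.0558 to 0.166) and VPS18 in 3 (0.0724 to 0.101). For each gene, the fit without both A libraries was among these settings. IGF1R was called lower only without both A libraries (0.00499), where 51 members were called higher and 3 lower, with a median of 0.26 and 9854 genes in all. With the replicate block, 51 members were called higher and 2 lower, with a median of 0.28 and 6762 genes in all. Same-letter correlations of deviations from the guide means were -0.24, -0.00, -0.09, -0.03 and -0.04 for A to E. These values cannot show whether libraries of the same letter were handled together, so pairing was not settled. On the log2(value + 1) scale of the deposited signal, FES stood at 0.56 and SORD at 0.61, as that scale understates low genes. At these depths FES, SORD and TYRO3, with SE of 0.11 or more, limit how closely a departure can be placed.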
